A study of Rattus norvegicus with 6 samples.

Results

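The expression of 9 complement genes was examined in crushed and intact rat sciatic nerves. The genes were C1s, C1r, C2, C3 and Cfb, which drive complement activation, and Cfi, Serping1, Cd55 and Cd59, which restrain it. All rows of the deposited table that carry one of these names were taken, which gave 10 of 30957 genes, because C2 names 2 rows. The genes had been picked with their counts in crushed and intact nerves already known, so their differences between the groups are a description, and how many of them pass a threshold is not evidence of a change. Sprague Dawley rats had given 3 crushed nerves and, from the uninjured side, 3 intact nerves for RNA-seq, with no genotype or drug in either group. The methods describe adult male animals and the proximal stump of the crushed nerve at 4 days postinjury (dpi), whereas the labels give neither an age nor a time. The injured side is given as right in the series text, whereas the methods name a right-sided incision but a left nerve. The same numbers 1 to 3 appear in both groups, and the labels do not say whether a number stands for 1 rat.

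Complement is a cascade of plasma and membrane proteins that tags cells and debris for removal. In the classical pathway, C1q recognizes a target and turns on the protease C1r, which cleaves the protease C1s, and C1s in turn cleaves C4 and C2 to build the convertase that splits C3. In the alternative pathway, factor B (Cfb) supplies the protease of a second convertase. In a damaged peripheral nerve, complement deposited on myelin debris helps macrophages to clear it, and the integrin subunits Itgam and Itgb2 form a receptor for fragments of C3.

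The counts on genes summed to between 24844371 and 27139360 per nerve. Values are given as normalized CPM (counts scaled by library size and TMM factor) when 1 gene is compared between nerves. They are given as FPKM (the authors' values per kilobase of transcript) when different genes are compared. A count of 3, the smallest level taken as different from 0, was between 0.110 and 0.121 normalized CPM. Of the genes that mark the cells of a sciatic nerve, some were at or near 0 in both groups and others were well detected. Mbp, which encodes a protein of myelin, had 0 to 1 counts per nerve, and so had Sox10, the Schwann cell transcription factor. Prx and Pmp22, which also encode myelin proteins, had 590 to 690 and 821 to 968 counts, and the adhesion molecule Ncam1 had 2064 to 2489. Among fibroblast and perineurial genes, Pdgfra had 1114 to 1525 counts per nerve, while Col1a2, Dcn and Lum had 0 throughout. Of 14 macrophage and leukocyte markers, Ptprc, Adgre1, Cd163 and Tyrobp had 0 counts in every nerve. In all, 8 of the 14 never exceeded 3 counts in a nerve. The 14 summed to 4.40 to 6.13 normalized CPM in intact and 5.13 to 7.07 in crushed nerves. Of the 4 that could be tested, 0 passed an adjusted p under 0.05 (edgeR), against 3.12% of all genes tested. At an unadjusted p under 0.05, 0 passed, against 16.2%. With 4 genes, 0 calls do not show that macrophage RNA was unchanged. The globin genes Hba1 and Hbb and the albumin gene Alb also had 0 counts throughout, while 5 genes of dividing cells summed to between 2820 and 3164 normalized CPM over the 6 nerves. The 14 Schwann cell markers in the table summed to 162 to 169 normalized CPM in intact and 143 to 150 in crushed nerves. Ncam1 made up most of that sum, with a mean of 92.6 normalized CPM in intact and 78.4 in crushed nerves. Pmp22 averaged 33.7 and 34.4, and only 7 of the 14 had enough counts for a test. The sum therefore does not show a general fall of these markers. The markers were thus mixed, with Mbp, Sox10 and the leukocyte gene Ptprc at or near 0, and the names crushed and intact nerve are used here as the labels give them.

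The levels of the 9 genes spanned almost the whole range of the data. In intact nerves C1r was highest, with 104.8 ± 4.51 FPKM (SD, n = 3), above 93.8% of the genes tested. It was followed by C1s with 21.4 ± 0.384 FPKM, Cd55 with 15.6 ± 1.25 FPKM, C2 with 5.47 ± 0.641 FPKM and Cd59 with 0.997 ± 0.183 FPKM. Cfb, with 0.131 ± 0.0797 FPKM, and C3, with 0.0113 ± 0.0138 FPKM, were barely detected. From C1r down to Cfb, the 3 intact nerves of each gene did not overlap those of the next gene, and nor did those of Cfb and C3. The order was the same in crushed nerves, except that Cfb (0.0461 to 0.137 FPKM) and C3 (0.0457 to 0.0787 FPKM) overlapped there. Serping1, whose product inactivates C1r and C1s, and Cfi, the protease that degrades activated C3, had 0 counts in all 6 nerves, which allows a level of up to 0.121 normalized CPM. The data thus held many reads of C1r and C1s and none of Serping1, the plasma inhibitor that acts on them. Col1a2, Dcn, Lum and Ptprc also had 0 counts in all 6 nerves. A value of 0 here therefore does not show that an RNA was absent from the nerve.

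**Figure D1:**
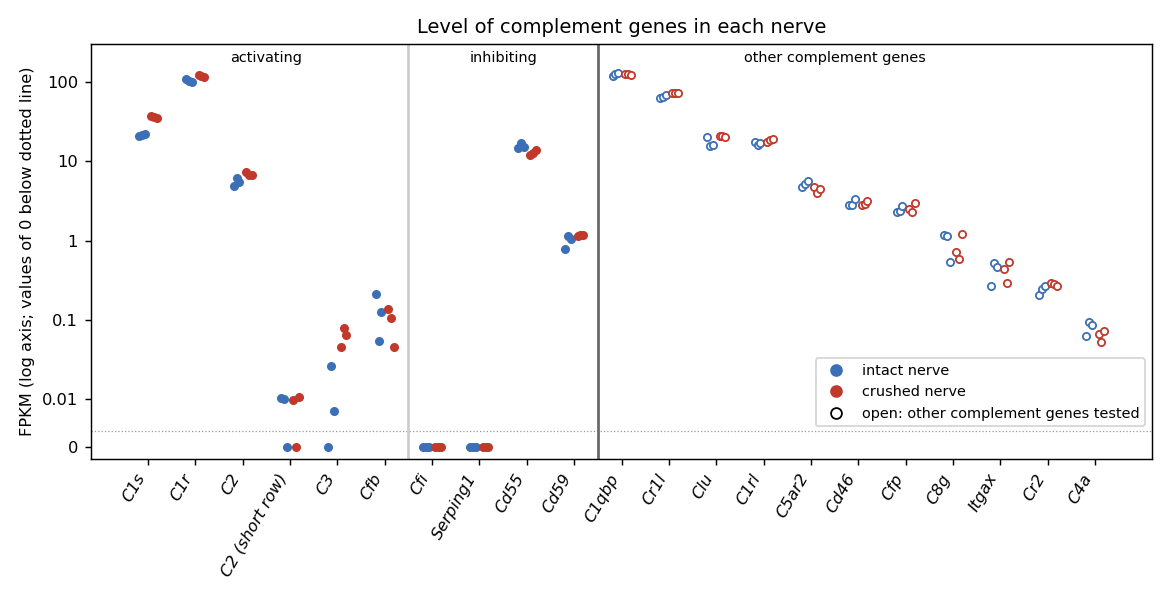
FPKM (log axis) of the 9 complement genes and of the 11 other complement genes tested, with 1 point per nerve, intact in blue and crushed in red, and values of 0 below the dotted line. C1r lies near 100 FPKM, C3 below 0.1, and Serping1 and Cfi at 0 in all 6 nerves.

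C1s showed the clearest difference between the groups. It lies on chromosome 4 from 157143592 to 157155609 and collected 2309, 2432 and 2326 reads in the intact samples and 4273, 4147 and 3721 in the crushed ones (replicates 1, 2 and 3, the order used throughout). Scaled for depth, C1s was at 91.3, 92.2 and 93.9 CPM in intact nerves and 156.5, 152.7 and 148.5 CPM in crushed nerves. Every crushed nerve lay far above every intact nerve, and nerves of 1 group differed by only a few percent. The log2 fold change of C1s was 0.72 (standard error 0.0413), a level 1.65-fold higher in crushed nerves. Whether more cells carried C1s RNA or each cell carried more cannot be told apart in bulk RNA.

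C1r, which activates C1s, is its neighbour on chromosome 4, from 157125998 to 157136829, and 6762 bp separate the pair. Its normalized CPM was 433.3, 409.1 and 395.4 in the intact and 471.8, 455.8 and 444.6 in the crushed samples. The groups did not overlap, but the lowest crushed nerve was only slightly above the highest intact nerve. The log2 fold change of C1r was 0.15 (standard error 0.0443). The FPKM ratio of C1r to C1s was 4.90 ± 0.296 (SD, n = 3) in intact nerves and 3.29 ± 0.0175 in crushed nerves, with no overlap between the groups. C1rl, a C1r-like protease gene that lies 2551 bp from C1r on its other side, averaged 39.4 normalized CPM in intact and 42.5 in crushed nerves and did not pass the test (log2 difference 0.11, adjusted p = 0.424, edgeR).

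C2, the substrate of C1s that becomes the protease of the classical convertase, collected 321, 422 and 355 reads in the intact and 512, 475 and 435 in the crushed samples, on the row from 4542340 to 4561152 of chromosome 20. This was 12.7, 16.0 and 14.3 normalized CPM in intact and 18.7, 17.5 and 17.4 in crushed nerves. All crushed nerves were above all intact nerves, by a margin no wider than the spread of the intact nerves. The log2 fold change of C2 was 0.32 (standard error 0.0939), or 1.25-fold. The second row named C2, from 4536203 to 4542947, had 0 to 1 counts per nerve. The row named Cfb, from 4536263 to 4561062, covers nearly all of both C2 rows and shares 18723 bp with the longer one. Cfb itself was credited with 19, 5 and 11 reads in the intact and 13, 10 and 4 in the crushed samples, and the groups overlapped (log2 fold change -0.43, standard error 0.519). In the RefSeq annotation of the GRCr8 assembly, C2 and Cfb are neighbours that do not overlap. The counting rule for reads on overlapping rows is not stated, so the values of C2 and Cfb could be split between the 3 rows. Of the 6745 bp of the shorter C2 row, 6685 bp lie within the Cfb row. Whether that shorter row stands for C2 or for Cfb cannot be told here. The values given for C2 and Cfb are those of the rows as named.

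**Figure D2:**
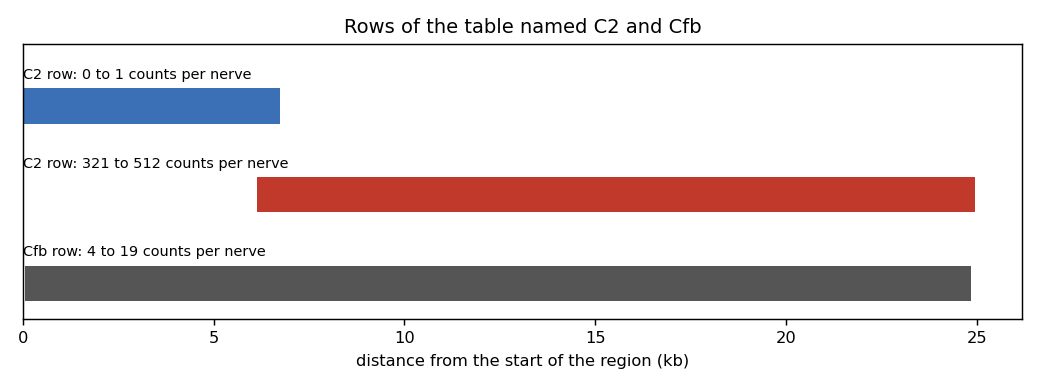
Span of the 3 rows of the table named C2 or Cfb on chromosome 20 (horizontal axis, distance from the start of the region in kb) with the lowest and highest count per nerve. The Cfb row, with 4 to 19 counts, covers almost the whole of both C2 rows, of which the longer has 321 to 512 counts and the shorter 0 to 1.

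C3, the protein on which all pathways converge, lies on chromosome 9 from 9721105 to 9747167 and was close to the limit of detection. Only 0, 4 and 1 reads fell on C3 in the intact samples, and 7, 12 and 9 in the crushed ones. Intact nerves 1 and 3 were thus at or under the floor of 3 counts, every crushed nerve was above it, and the groups did not overlap. Summed over nerves, 5 counts in intact and 28 in crushed nerves gave a ratio of 5.38 after scaling, with a 95% exact interval from 2.05 to 17.9 that covers counting error only. C3 did not pass edgeR's expression filter. The same fit without the filter gave a log2 fold change of 2.35 (standard error 0.721). Even in crushed nerves C3 reached only 0.0628 ± 0.0165 FPKM, against 35.7 ± 0.938 FPKM for C1s.

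Among the inhibitors, Cd55 was lower in crushed nerves. Cd55, or decay-accelerating factor, is a membrane protein that takes the C3 convertases apart, and its gene lies on chromosome 13 from 47126741 to 47154292. Its reads numbered 1159, 1399 and 1166 in the intact and 1010, 1054 and 1071 in the crushed samples. The normalized level was 45.8, 53.0 and 47.1 CPM without injury and 37.0, 38.8 and 42.7 CPM after crush. All crushed nerves were below all intact nerves, with the closest pair a few CPM apart. The log2 fold change of Cd55 was -0.30 (standard error 0.0740). The FPKM ratio of C1s to Cd55 was 1.38 ± 0.106 (SD, n = 3) in intact and 2.80 ± 0.275 in crushed nerves, and that of C2 to Cd55 was 0.350 ± 0.0180 and 0.540 ± 0.0600. These ratios follow from the differences of the single genes, which were picked on this contrast. They are a description and do not show a shift from inhibitors to activating genes as a whole.

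Cd59, which blocks the membrane attack pore at the end of the cascade, lies on chromosome 3 from 94010475 to 94028621. Reads on Cd59 were few, with 30, 45 and 39 in the intact and 46, 47 and 43 in the crushed samples. Its normalized CPM was 1.19 to 1.71 in intact and 1.68 to 1.73 in crushed nerves, so that the groups overlapped (log2 fold change 0.20, standard error 0.195). Without intact nerve 1 this difference of Cd59 was 0.06. The other inhibitors, Serping1 on chromosome 3 from 72161189 to 72171078 and Cfi on chromosome 2 from 235264219 to 235305781, gave no fold change with 0 counts in both groups.

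**Figure D3:**
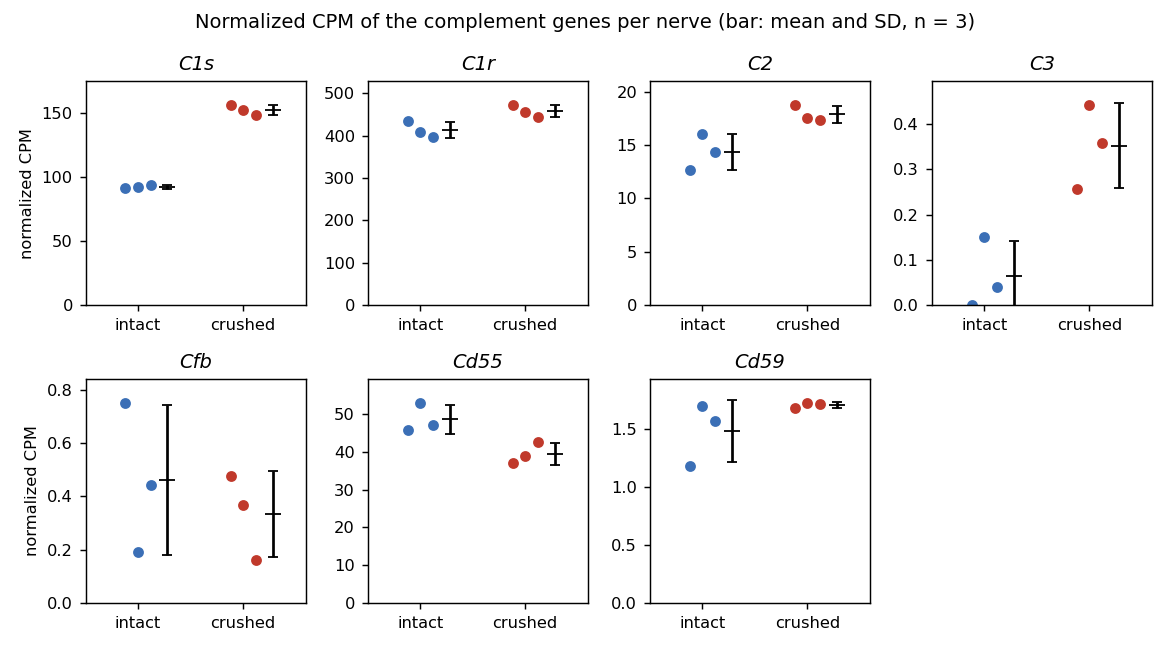
Normalized CPM (vertical axes, each from 0) of the 7 complement genes with counts, with 1 point per nerve and the mean and SD (n = 3) of each group as a bar, cut at 0 for C3 in intact nerves. C1s separates the groups widely, C1r, C2, C3 and Cd55 do so by less, and the groups of Cfb and Cd59 overlap.

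The methods call a gene at a change of more than 1 log2 unit with a p below 0.001, read here as unadjusted. By these limits 0 of the 6 rows with enough counts were differentially expressed by edgeR's quasi-likelihood test, as against 0.282% of all 12393 genes tested (0.218% higher and 0.0646% lower in crushed nerves), and 0 by DESeq2, as against 0.266%. At an unadjusted p under 0.05, 4 of the 6 passed in each tool (C1s, C1r and C2 higher, Cd55 lower), against 16.2% of all genes in edgeR, 6.71% higher and 9.50% lower, and 12.8% in DESeq2. At an adjusted p under 0.05 only C1s passed in edgeR, where 3.12% of all genes did (1.47% higher and 1.65% lower), and C1s and Cd55 passed in DESeq2, where 4.48% did. In 3 of the 6 rows all crushed nerves were higher and in 1 all were lower, whereas 23.0% of all genes tested had groups that did not overlap (10.8% with crushed nerves higher and 12.2% lower). The median log2 fold change was 0.23 over the 4 activating rows with enough counts and -0.05 over the 2 inhibiting ones, against -0.0017 for all genes tested. Since the genes were picked on this contrast, these counts and medians describe them and are no evidence of a change. The median of the inhibiting rows rests on Cd55 and Cd59 alone and was 0.04 without intact nerve 2.

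**Figure D4:**
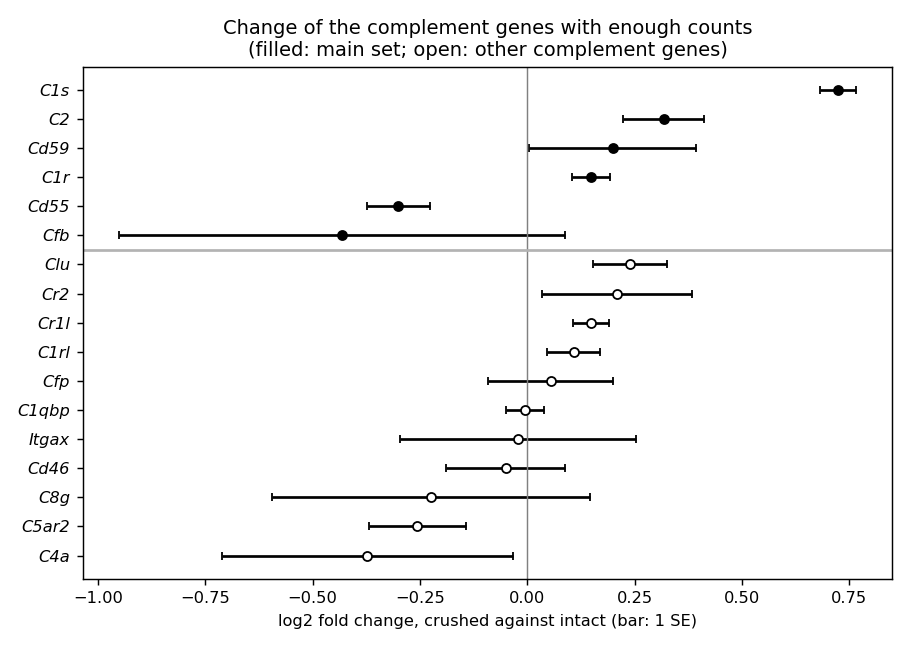
Log2 fold change of crushed against intact nerves (horizontal axis) with 1 standard error from edgeR's fit, for the 6 complement rows with enough counts (filled) and 11 other complement genes (open). C1s, at 0.72, lies far from 0 relative to its error, while the 11 others lie between -0.37 and 0.24.

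The rest of the complement system was read from a list of 54 other names, of which 48 were in the table on 49 rows. Only 11 rows had enough counts for the test, 26 had 0 counts in all 6 nerves, and 34 never exceeded 3 counts in a nerve. Genes without counts were common in the table as a whole. Of its 30957 genes, 17425 had a count in any nerve and 12393 were tested. By edgeR's quasi-likelihood test, 0 of the 11 passed an adjusted p under 0.05, against 3.12% of all genes tested. At an unadjusted p under 0.05, 3 passed (Cr1l and Clu higher, C5ar2 lower), against 16.2% of all genes. By DESeq2 these counts were 0 and 2, against 4.48% and 12.8% of all genes. All 3 genes of C1q, the recognition unit that C1r and C1s serve, had 0 counts in every nerve. The lectins Mbl1, Mbl2, Fcna, Fcnb and Colec10 and the lectin pathway protease Masp1 had 0 counts as well. C4a, the other substrate of C1s, had 8 to 14 counts per nerve, and a log2 difference of -0.37 ± 0.339 (SE, adjusted p = 0.641, edgeR), on a row that overlaps C4b. A second row named C4a had 0 counts in all 6 nerves, and C4b had 0 to 1 per nerve. The terminal components C6, C7, C8a and C8b had 0 counts, and C8g, which belongs to the pore complex, had 11 to 25 (log2 fold change -0.22, adjusted p = 0.814, edgeR). Properdin (Cfp), which stabilizes the alternative convertase, had 87 to 109 counts and a log2 fold change of 0.05 (adjusted p = 0.893, edgeR).

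Of the other inhibitors, Cr1l had the highest level of those tested. Cr1l, the rodent regulator Crry that acts on C3 and C4 fragments, had 65.2 ± 3.02 FPKM (SD, n = 3) in intact nerves and 73.1 ± 0.407 FPKM after crush. All crushed nerves were above all intact nerves for Cr1l, opposite in direction to Cd55, at a log2 difference of 0.15 ± 0.0423 (SE) that did not pass (adjusted p = 0.102, edgeR). Cd46, a cofactor for the cleavage of C3 fragments, had 3.00 and 2.93 FPKM and a log2 fold change of -0.05 (adjusted p = 0.895, edgeR). Clusterin (Clu), which binds the terminal complex, had 17.2 and 20.5 FPKM and a log2 fold change of 0.24 (adjusted p = 0.199, edgeR), and passed an adjusted p under 0.05 when intact nerve 1 was left out. Vitronectin (Vtn), which acts in plasma, had 0 counts. Of the receptors, C5ar1 had 0 counts, and C5ar2 had 5.21 and 4.41 FPKM (log2 fold change -0.26, adjusted p = 0.293, edgeR), with all crushed nerves lower. Cr2 and Itgax had log2 fold changes of 0.21 and -0.02 (adjusted p = 0.605 and 0.979, edgeR), and C1qbp, a mitochondrial protein first isolated as a C1q-binding protein, had 124.0 and 124.9 FPKM (log2 fold change -0.01, adjusted p = 0.963, edgeR). Itgam and Itgb2, which form the receptor for C3 fragments on macrophages, had at most 8 and 3 counts in a nerve.

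The genes whose level followed that of C1s most closely over the 6 nerves were Psmb10, Fbn1, Gbp2, Nfkb2 and B4galt5, with Pearson correlations of 0.995 to 0.999 in log2 CPM. This comparison was added for C1s after its values were seen, and the 6 nerves of 2 groups shared by all genes largely set it, since 162 of the genes tested had a correlation above 0.95. C1s separated the groups, so genes picked for following it differ between the groups by selection. Their differences and p-values below are a description and no evidence of a change. Psmb10, a subunit of the immunoproteasome, was higher in crushed nerves by 0.57 ± 0.0469 on the log2 scale (SE, adjusted p = 7.33e-05, edgeR). Gbp2, an interferon-induced guanylate-binding protein, was higher by 0.77 ± 0.0362 (SE, adjusted p = 1.68e-06, edgeR), close in size to that of C1s. Nfkb2, an NF-κB subunit, was higher by 0.75 ± 0.0411 (adjusted p = 2.89e-06), and B4galt5, a galactosyltransferase, by 0.39 ± 0.0376 (adjusted p = 0.000206, edgeR). Fbn1, which encodes the microfibril protein fibrillin, rose by 0.63 ± 0.0369 (adjusted p = 4.06e-06, edgeR). It stood on the list of fibroblast and perineurial markers, of which 9 of 13 were tested. At an adjusted p under 0.05 (edgeR), 1 was higher, Fbn1 itself, and 3 were lower (Col1a1, Col3a1 and Pdgfrb). Of all genes tested, 1.47% were higher and 1.65% lower. The summed level of that list was 1315 to 1362 normalized CPM in intact and 1708 to 1757 in crushed nerves, a gap carried by Fbn1 alone. Fbn1 had 762 to 801 normalized CPM in intact and 1203 to 1246 in crushed nerves, whereas the other 12 markers summed to 514 to 585 and 506 to 536, which overlapped. Slc2a1 made up most of that sum, with 313 to 377 normalized CPM per nerve. The sum therefore does not show that Col1a1, Col3a1 and Pdgfrb were lower. The part of that list in the difference of C1s was not tested. Of the 7 Schwann cell markers tested, Erbb3 and Ncam1 were lower at an adjusted p under 0.05 (edgeR), against 1.65% of all genes. Their part was not tested either. The genes most like C3, namely Akr1b1-ps2, Tspan31, Ptdss1, Xpo7 and Mzt1 (Pearson correlations of 0.987 to 0.998), were matched to a gene with 0 to 12 counts per nerve and had adjusted p-values between 0.167 and 0.323 (edgeR).

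Promoter sequences were available from RefSeq (GRCr8) for 4 of the 9 genes, C1r, C3, Cd55 and Cfi, and are shown for the first 3, the most abundant activating gene, the gene near the limit of detection and the gene that was lower. Each runs 5′ to 3′ along the gene from 250 bp before to 50 bp after its start, with matches to the searched motifs in capitals. C1r lies at chr4:159098763-159099062 on the plus strand, C3 at chr9:2201290-2201589 on the minus strand and Cd55 at chr13:44438052-44438351 on the minus strand.
C1r: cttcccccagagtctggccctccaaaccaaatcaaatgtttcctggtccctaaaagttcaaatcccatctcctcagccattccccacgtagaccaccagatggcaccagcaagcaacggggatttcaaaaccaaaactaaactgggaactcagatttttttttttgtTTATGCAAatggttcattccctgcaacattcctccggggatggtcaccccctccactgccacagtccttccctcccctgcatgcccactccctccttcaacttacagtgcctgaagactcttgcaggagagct
C3: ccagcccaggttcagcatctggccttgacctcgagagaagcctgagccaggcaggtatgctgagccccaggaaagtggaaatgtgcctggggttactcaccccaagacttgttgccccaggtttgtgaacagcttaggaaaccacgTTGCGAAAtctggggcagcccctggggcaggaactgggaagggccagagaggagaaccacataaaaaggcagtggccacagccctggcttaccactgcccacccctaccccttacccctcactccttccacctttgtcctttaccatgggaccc
Cd55: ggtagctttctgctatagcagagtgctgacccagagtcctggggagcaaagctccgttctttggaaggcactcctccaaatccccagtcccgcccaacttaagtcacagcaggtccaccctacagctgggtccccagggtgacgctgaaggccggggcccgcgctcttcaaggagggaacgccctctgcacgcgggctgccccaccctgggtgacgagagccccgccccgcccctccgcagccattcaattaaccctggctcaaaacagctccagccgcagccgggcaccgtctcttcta

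The motifs searched on both strands were the NF-κB consensus, the STAT site TTCNNNGAA, the interferon response core (GAAA repeated after any 2 bases), the C/EBP site TTNNGCAA and the TATA box TATAAA. C1r held a C/EBP match from 83 bp before the start site, and C3 held 1 on the opposite strand from 104 bp before it. A C/EBP match occurred in 10.6% of the 33469 promoters of that table. No motif of the 5 matched in Cd55 or Cfi, and none of the other motifs matched in C1r or C3, whereas the NF-κB consensus occurred in 4.18% of all promoters, the STAT site in 8.87%, the interferon core in 3.92% and the TATA box in 14.2%. A match or its absence in this window says nothing about binding of a factor in these nerves.

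The log2 fold change of C1s was between 0.70 and 0.74 in all 12 fits. That of C2 kept its sign and ran from 0.24 without intact nerve 1 to 0.41 without intact nerve 2. That of C1r ran from 0.12 without intact nerve 3 to 0.19 without intact nerve 1, and that of Cd55 from -0.36 without crushed nerve 3 to -0.23 without intact nerve 2. That of Cfb ran from -0.81 without intact nerve 2 to 0.12 without intact nerve 1.

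**Figure D5:**
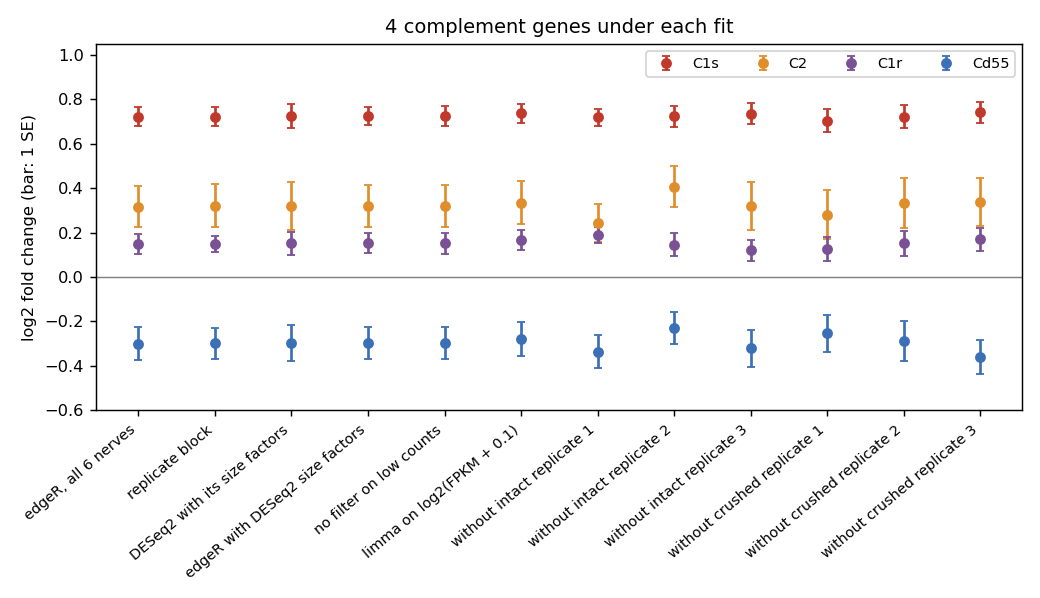
Log2 fold change of crushed against intact nerves with 1 standard error (vertical axis) for C1s, C2, C1r and Cd55 under each of 12 fits (horizontal axis). C1s stays between 0.70 and 0.74, C2 and C1r stay above 0, and Cd55 stays below 0 in each fit.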

How the data were processed

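RNA-seq counts of 3 crushed and 3 intact rat sciatic nerves were used. The authors deposited 1 table with raw read counts per Ensembl gene and nerve and FPKM values computed from them. The submitters' processing notes name HISAT2, StringTie 1.3.0 and the build Rnor_6.0. The counting rule is not given in the sources used here, and the table's coordinates are printed as deposited. The labels name a column kit for RNA extraction, whereas the methods name TRIzol and a digestion with RNase R, which degrades linear RNA.

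Differences were computed from the counts by the quasi-likelihood test of edgeR 4.0.16 under R 4.3.3, with TMM factors, the filterByExpr filter and no replicate block, over all genes and 6 nerves. Adjusted p-values are Benjamini-Hochberg values over 12393 genes. The standard error was taken from the test statistic. The alternatives were a replicate block, DESeq2 1.42.0, its size factors in edgeR, no filter on low counts, limma 3.58.1 on log2(FPKM + 0.1), and each nerve left out. The genes and lists were chosen with earlier results of these data known. The genes named by rule were the 9 genes, each other complement gene with enough counts, the defining genes of the marker lists and the 5 genes most correlated with C3. The 5 genes most correlated with C1s, the markers with many counts and the complement genes named at 0 or few counts were chosen after their values were seen. No column of values was left unused. Some items are not reported here. The labels do not say that nerves of 1 group came from separate rats, so p-values measure the spread between these samples. The calculation was tested on simulated counts. Nerves of 1 group differed beyond counting error (chi-square divided by its degrees of freedom, 3.38 to 12.3), so each nerve counted as 1 sample. The labels do not say that a number stands for 1 rat, so the numbers were not taken as pairs in the main fit. Deviations from the group means correlated by only -0.0148 to 0.0756 between nerves of the same number. This cannot show that the nerves were not paired by rat.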

Additional observations from a re-analysis of the deposited data

How the results depend on the processing

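None of the 6 complement rows tested passed the limits of the methods in any of the 11 alternatives. With the replicate block (paired analysis) 1 of them passed an adjusted p under 0.05, C1s, as in the unblocked fit, and the log2 fold change of C1s was 0.72. With DESeq2 2 of them passed (C1s and Cd55), and with one nerve left out 1 to 3 did. The 3, found without intact nerve 1, were C1s, C1r and Cd55. C1s passed in all 12 fits, and C1r and Cd55 changed sides of the threshold between fits (adjusted p 0.0191 to 0.375 and 0.0102 to 0.230). As these genes were chosen on this contrast, the calls are no evidence of a change. Of the other complement genes 0 to 1 passed when one nerve was left out, the 1 being Clu without intact nerve 1, and 0 in each of the other alternatives. For these calls, the cause was not tested. The share of all genes that passed is given only for the unblocked edgeR fit (3.12%) and DESeq2 (4.48%). The counts from the other fits have no such share beside them, so they cannot be set against all genes. The median of the inhibiting rows changed sign without intact nerve 2 (0.04), and the log2 fold change of Cfb without intact nerve 1 (0.12). All genes past the limits numbered 35, and between 27 and 41 in the alternatives. Depth limits what can be said of C3, Cfb and Cd59, and no change in Serping1 or Cfi was detectable at 0 counts.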
